A study of Homo sapiens with 30 samples.

Results

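From the 60675 genes of a deposited count table, 10 genes of the interleukin 6 (IL6) cytokine family and its signalling route were followed in SW1783, an established human astrocytoma cell line. They were chosen by name, with earlier results of these data known. Counts of members beside the share of all genes are therefore descriptions only. The genes were the ligand genes IL6, IL11, LIF and CLCF1 and the receptor genes IL6ST, IL6R, OSMR and LIFR. The transcription factor gene STAT3 and the feedback inhibitor gene SOCS3 were also followed. All 10 passed the filter on low counts. Cells had been kept for 24 h with an ethanol extract of a formula used in traditional Korean medicine, or with the vehicle. The concentrations were 20, 100 and 500 µg/mL, each with 3 libraries for Soshiho-tang and for Yijin-tang, 2 for Okbyeongpung-san and 1 for Soyo-san. The vehicle group had 3 libraries from cells given DMSO, whose concentration is given differently in the sample labels and in the series description. Whether the replicates were cultured separately is not in the labels. The p-values therefore reflect library-to-library spread alone, and that spread may be technical.

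Members of this family signal through receptor complexes that share the chain gp130, the product of IL6ST. IL6 and IL11 bind a private receptor chain first (IL6R for IL6), LIF and CLCF1 signal through complexes that hold the LIF receptor chain LIFR, and OSMR is the specific chain of the oncostatin M receptor. Receptor-bound Janus kinases phosphorylate STAT3, which enters the nucleus and switches on target genes, among them SOCS3, whose product blocks the receptor and the kinases. In the brain, astrocytes are both a source and a target of IL6 and LIF, and STAT3 is known for its part in reactive astrogliosis.

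The promoters of IL6 and IL11 are shown because these were the 2 members that passed the test between 500 and 20 µg/mL with both Soshiho-tang and Yijin-tang. The 250 bases before each annotated start were taken from RefSeq (GRCh38.p14), chr7:22726950-22727199 on the plus strand for IL6 and chr19:55370464-55370713 on the minus strand for IL11. Capitals mark matches to 5 motifs, searched on both strands: STAT (TTCNNNGAA), NF-kB (GGNNTTTCC), AP-1 (TGANTCA), C/EBP (TTGCNNAA) and CRE (TGACGT). In IL6 the capitals are, in order, CRE on the opposite strand, C/EBP and NF-kB, and in IL11 they are AP-1.
IL6: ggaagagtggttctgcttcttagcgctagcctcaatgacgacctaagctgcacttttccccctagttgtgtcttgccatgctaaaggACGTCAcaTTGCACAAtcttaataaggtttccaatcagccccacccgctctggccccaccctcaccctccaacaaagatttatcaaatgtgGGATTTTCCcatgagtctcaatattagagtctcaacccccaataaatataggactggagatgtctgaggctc
IL11: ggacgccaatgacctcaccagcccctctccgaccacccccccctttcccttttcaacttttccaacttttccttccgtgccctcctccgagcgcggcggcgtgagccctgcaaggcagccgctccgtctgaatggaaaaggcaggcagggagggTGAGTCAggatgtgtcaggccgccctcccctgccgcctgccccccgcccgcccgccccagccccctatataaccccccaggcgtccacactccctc

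Promoters were matched for 8 of the 10 genes, not for LIF and CLCF1, and were searched over 300 bases, the 250 above and 50 after the start. Of 35116 promoters of that length, 6.26% held NF-kB, 10.5% C/EBP, 7.98% CRE, 7.71% AP-1 and 7.66% STAT. IL6 was the member with matches to NF-kB and CRE. AP-1 was also matched in IL6R and in OSMR, C/EBP in OSMR as well, and STAT in LIFR. The windows of IL6ST, STAT3 and SOCS3 held none of these motifs. The starts are those of RefSeq and can differ from the GENCODE v29 gene coordinates given below. The SOCS3 window (chr17:78360876-78361175) lay wholly upstream of the SOCS3 gene given below, so the bases next to that start were not searched. The windows of LIFR (chr5:38595356-38595655) and IL6 lay inside the gene spans given below. A match is a description of the letters in the window, not of binding.

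Library totals of estimated counts ran from 23.9 to 33.1 M. Of the astrocyte markers, SOX9 was at 52.8 to 92.9 CPM (count per M of the library total, scaled by TMM over all 30 libraries) and SLC1A3 at 18.1 to 35.2 CPM, while GFAP, S100B, ALDH1L1 and AQP4 were at or near 0 (at most 0.205, 0.251, 0.0966 and 0.0703 CPM), so the defining markers of mature astrocytes were largely absent. Replicate 3 of Yijin-tang at 500 µg/mL stood apart from the other libraries of its group. Its chi-square per degree of freedom against them was 39.47 and 23.52, beside 4.3 between those. Test results of the 10 members that passed with or without it are given both ways. For genes outside the 10, such as those of the lists, values without it are not given. Mitochondrially encoded genes took 6.93% to 7.79% of counts in Soshiho-tang at 500 µg/mL, 6.7% to 10.61% in Yijin-tang at 500 µg/mL and 10.47% to 10.7% in the vehicle libraries. The part of this difference in the results was not tested beyond refitting without those genes, which changed no call among the members followed.

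In vehicle libraries the shared receptor chain was the most abundant of the 10 per kilobase of exon. IL6ST stood at 54.9 CPM per kilobase and OSMR at 34.2. IL11 was the most abundant ligand gene at 26.8 CPM per kilobase, followed by CLCF1 at 11.3, LIF at 5.46 and IL6 at 1.62. STAT3 stood at 24.5, SOCS3 at 13.8 and LIFR at 7.8 CPM per kilobase. IL6R was lowest at 0.247 CPM per kilobase, and its counts in the 30 libraries ran from 34 to 102. Each gene's 3 vehicle libraries lay apart from those of its neighbours in this order.

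At 500 against 20 µg/mL, Soshiho-tang raised IL6, LIF and IL6R and lowered IL11, CLCF1, STAT3 and SOCS3. Yijin-tang raised IL6 and IL11, and the other 8 genes did not pass the test. The quasi-likelihood test of edgeR with Benjamini-Hochberg adjustment thus passed 7 of the 10 genes for Soshiho-tang, where 28.9% of 16872 tested genes passed (14.6% higher and 14.2% lower), and 2 of 10 for Yijin-tang, where 5.64% passed (2.7% higher and 2.94% lower). The median log2 change of the 10 was -0.15 for Soshiho-tang and 0.03 for Yijin-tang, beside 0.01 and 0 over all tested genes. Libraries at 500 and 20 µg/mL did not overlap for 8 of the 10 genes with Soshiho-tang and for 4 with Yijin-tang, against 43.4% and 21.9% of all tested genes. In these bulk samples, fewer cells of a type and less RNA per cell cannot be told apart.

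LIF (chr22:30240447-30246851, minus strand), a cytokine named for its effect on leukaemia cells and active on neural cells, had 50.3, 59.4 and 62.3 CPM in Soshiho-tang libraries at 500 µg/mL, against 22.5, 22.6 and 22.3 CPM at 20 µg/mL. All 3 libraries at 500 µg/mL lay far above every other library of the series, the highest of which had 32.5 CPM. The log2 fold change was 1.35 ± 0.08 (SE; adjusted p = 4.27e-11), the largest of the 10. Soshiho-tang at 100 µg/mL gave 23.5, 21.9 and 24 CPM, a log2 difference from 20 µg/mL of 0.04 ± 0.09 (adjusted p = 1). With Yijin-tang LIF had 17.8, 21.2 and 22.7 CPM at 500 µg/mL, against 24.7, 26.2 and 23.2 CPM at 20 µg/mL. The Yijin-tang libraries at 500 µg/mL lay below those at 20 µg/mL, but the change of -0.27 ± 0.09 did not pass (adjusted p = 0.0725). Without replicate 3 at 500 µg/mL it was -0.35 ± 0.09 and passed (adjusted p = 0.0246), as it did with no filter on low counts (-0.26 ± 0.07, adjusted p = 0.0189).

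IL11 (chr19:55364389-55370463, minus strand), a cytokine linked to stromal and fibrotic responses, had 39.8, 42.8 and 53.7 CPM in Soshiho-tang libraries at 500 µg/mL, against 63.6, 70.5 and 59.9 CPM at 20 µg/mL. The 3 libraries at 500 µg/mL were lower than all 3 at 20 µg/mL, with a log2 fold change of -0.52 ± 0.09 (adjusted p = 1.19e-04). With Yijin-tang the direction was the opposite. Its libraries had 147, 139 and 126 CPM at 500 µg/mL, against 75.1, 71.8 and 82.1 CPM at 20 µg/mL. The libraries did not overlap, and the log2 fold change was 0.85 ± 0.09 (adjusted p = 2.27e-06). Without replicate 3 at 500 µg/mL it was 0.90 ± 0.09 (adjusted p = 3.17e-06).

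IL6 (chr7:22725884-22732002, plus strand), the inflammatory cytokine that gives the family its name, was rare: its counts ran from 77 to 276 per library. It had 6.5, 6.59 and 5.53 CPM in Soshiho-tang libraries at 500 µg/mL, against 3.83, 3.01 and 4.94 CPM at 20 µg/mL. The groups did not overlap, and the log2 fold change was 0.67 ± 0.15 (adjusted p = 0.00197). With Yijin-tang it had 7.42, 7.81 and 9.85 CPM at 500 µg/mL, against 4.73, 3.43 and 4.49 CPM at 20 µg/mL. Here too every library at 500 µg/mL was above every library at 20 µg/mL, with a log2 fold change of 0.99 ± 0.15 (adjusted p = 2.4e-04). Without replicate 3 at 500 µg/mL, the highest of the series, it was 0.86 ± 0.15 (adjusted p = 0.00168).

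CLCF1 (chr11:67364168-67374177, minus strand), a neurotrophic member of the family, had 21.8, 21.6 and 21.7 CPM in Soshiho-tang libraries at 500 µg/mL, against 24, 24.7 and 27.2 CPM at 20 µg/mL. The fall was small, at -0.22 ± 0.07 on the log2 scale (adjusted p = 0.013), and did not pass without replicate 3 at 20 µg/mL (-0.17 ± 0.07, adjusted p = 0.0861). Vehicle libraries averaged 22.4 CPM. Against them neither Soshiho-tang at 500 µg/mL (-0.05 ± 0.07, edgeR adjusted p = 0.605) nor at 20 µg/mL (0.18 ± 0.07, adjusted p = 0.0631) passed. CLCF1 overlaps the gene RAD9A, on the opposite strand, and the strand setting of the counting was not given in the sources used here. Other members overlap opposite-strand genes too. For IL6 these are STEAP1B and AC073072.1, at mean counts of 24 and 20.6 beside 140.7 for IL6. OSMR overlaps RICTOR, at 1326.2 beside 7036.5 for OSMR. With Yijin-tang CLCF1 had 22.9, 22.4 and 25.3 CPM at 500 µg/mL, against 25.7, 27.2 and 24.8 CPM at 20 µg/mL. The groups overlapped (-0.14 ± 0.07, adjusted p = 0.251).

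**Figure D1:**
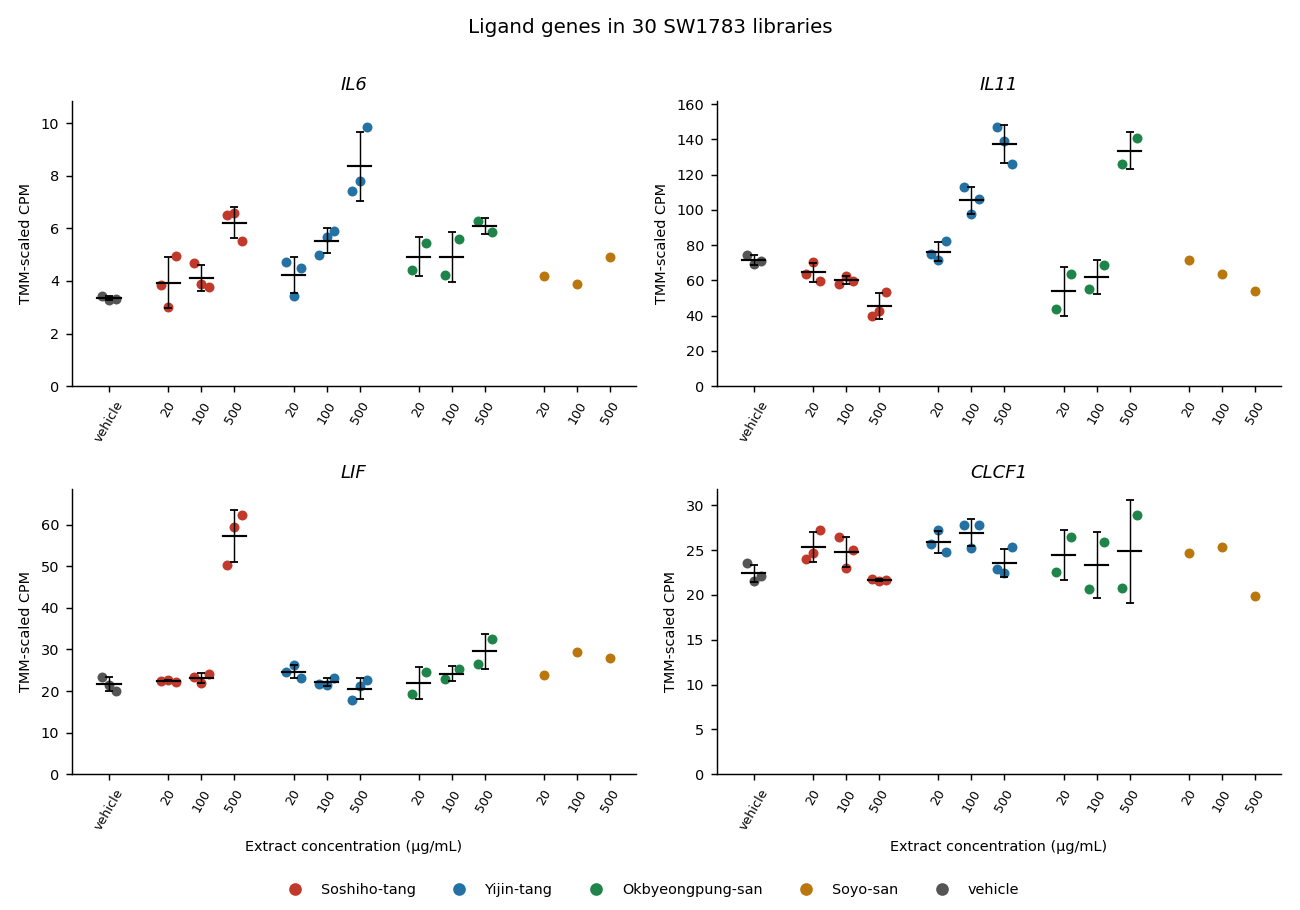
Levels of the 4 ligand genes in all 30 libraries. Each point is a library (vertical axis, TMM-scaled CPM, starting at 0; horizontal axis, vehicle and then each extract at 20, 100 and 500 µg/mL), with the group mean as a line and the SD as a bar where a group has more than 1 library. LIF stands at 50.3 to 62.3 CPM with Soshiho-tang at 500 µg/mL and at 32.5 CPM or less elsewhere, and IL11 at 126 to 147 CPM with Yijin-tang at 500 µg/mL.

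Of the receptor genes, IL6R (chr1:154405193-154469450, plus strand), which makes the private chain for IL6, changed with Soshiho-tang. It had 3.09, 3.47 and 3.47 CPM at 500 µg/mL, against 2.3, 1.94 and 2.16 CPM at 20 µg/mL. The 3 higher libraries lay apart from the others, on 94 to 102 counts each, and the log2 fold change was 0.65 ± 0.15 (adjusted p = 0.00168). With Yijin-tang it had 1.82, 1.79 and 1.96 CPM at 500 µg/mL, against 2.14, 1.82 and 2.24 CPM at 20 µg/mL, and the groups overlapped (-0.15 ± 0.16, adjusted p = 0.68).

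The other 3 receptor genes did not pass with either extract. IL6ST (chr5:55935095-55994993, minus strand) stayed within 456 to 571 CPM across the 18 libraries of both extracts. Its log2 change between 500 and 20 µg/mL was -0.01 ± 0.06 with Soshiho-tang and -0.05 ± 0.06 with Yijin-tang. OSMR (chr5:38845858-38945596, plus strand) had 232, 225 and 223 CPM in Soshiho-tang libraries at 500 µg/mL, against 247, 249 and 260 CPM at 20 µg/mL. These groups did not overlap, and the difference of -0.15 ± 0.06 had an adjusted p of 0.0599, which became 0.0353 in DESeq2 (-0.16 ± 0.06) and 0.0184 when the compared groups were fitted alone. LIFR (chr5:38474963-38608354, minus strand) overlapped between the doses for both extracts, at -0.15 ± 0.08 with Soshiho-tang (adjusted p = 0.17) and 0 ± 0.08 with Yijin-tang (adjusted p = 0.99).

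STAT3 (chr17:42313324-42388568, minus strand) had 174, 173 and 174 CPM in Soshiho-tang libraries at 500 µg/mL, against 207, 218 and 207 CPM at 20 µg/mL. The libraries at 500 µg/mL were nearly alike and all lower, with a log2 fold change of -0.28 ± 0.04 (adjusted p = 1.06e-05). With Yijin-tang it had 217, 219 and 218 CPM at 500 µg/mL, against 206, 207 and 213 CPM at 20 µg/mL. These groups did not overlap either, but the difference of 0.06 ± 0.04 did not pass (adjusted p = 0.419).

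SOCS3 (chr17:78356778-78360077, minus strand), the feedback brake, had 31.3, 28.4 and 29.2 CPM in Soshiho-tang libraries at 500 µg/mL, against 35.9, 37.1 and 37.1 CPM at 20 µg/mL. All 3 libraries at 500 µg/mL were lower, with a log2 fold change of -0.31 ± 0.06 (adjusted p = 4.1e-04). With Yijin-tang it had 44.4, 40.9 and 37.2 CPM at 500 µg/mL, against 39.9, 39.8 and 36 CPM at 20 µg/mL. The groups overlapped (0.08 ± 0.06, adjusted p = 0.497).

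**Figure D2:**
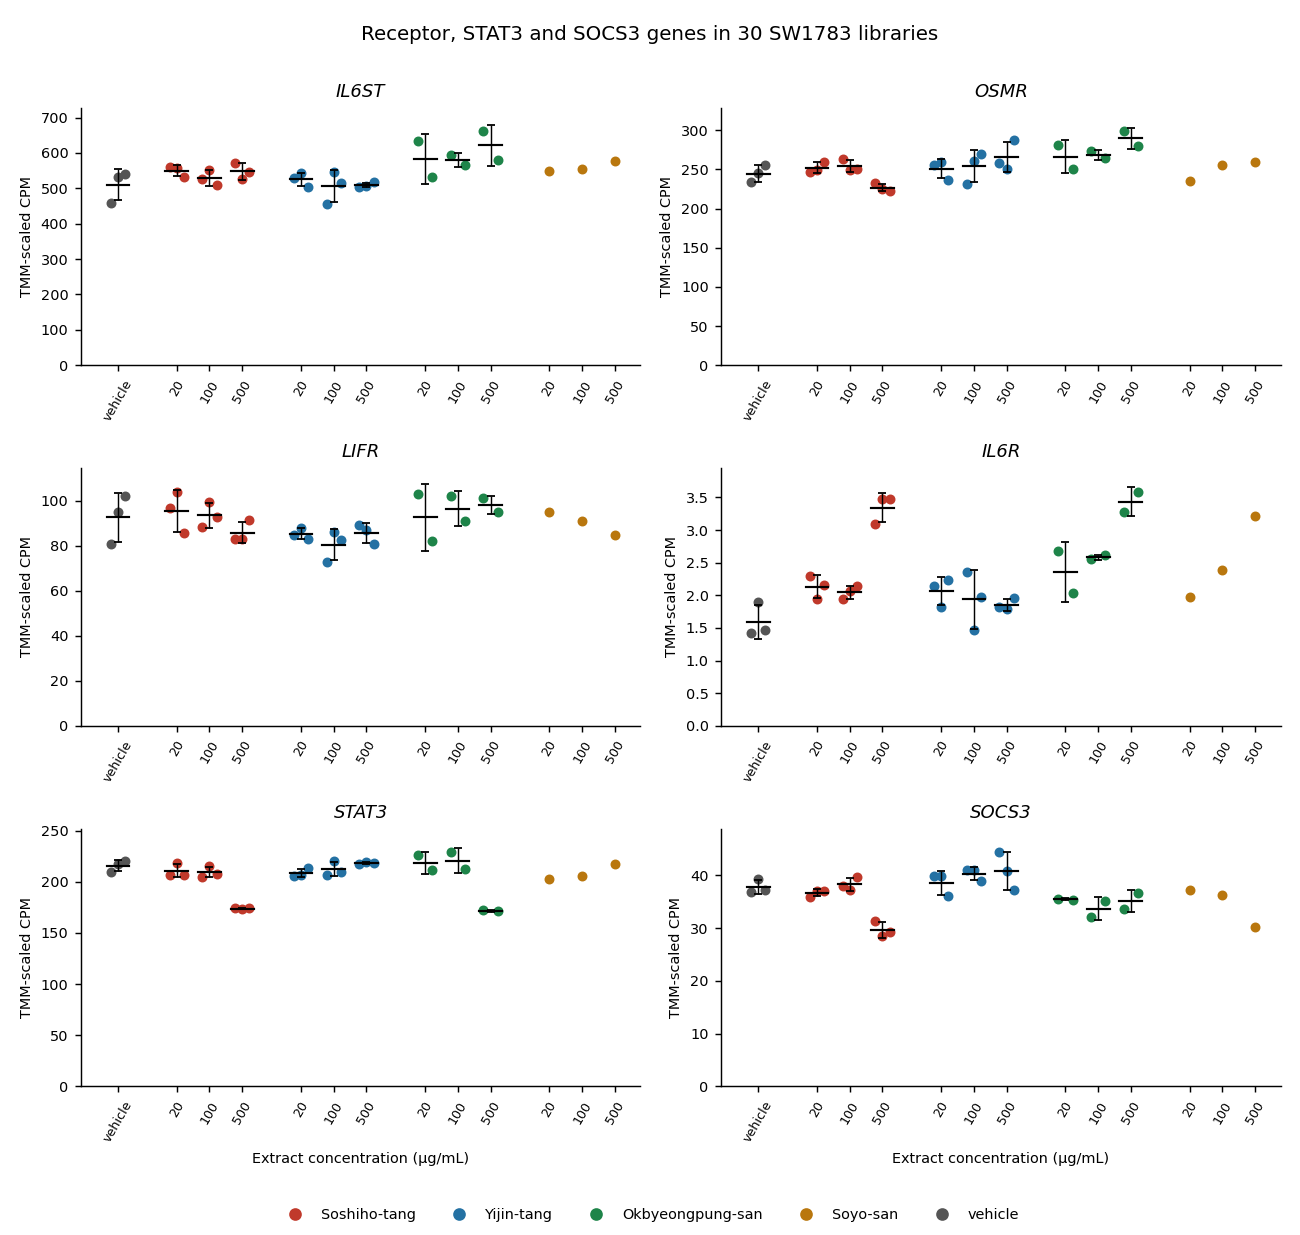
Levels of the 4 receptor genes, STAT3 and SOCS3 in all 30 libraries, drawn as for the ligand genes (points, libraries; lines, group means; bars, SD; vertical axes in TMM-scaled CPM from 0). STAT3 stands at 173 to 174 CPM with Soshiho-tang and at 171 to 172 CPM with Okbyeongpung-san at 500 µg/mL, and at 203 to 229 CPM in the other 25 libraries.

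Between 100 and 20 µg/mL none of the 10 genes passed the test with either extract (edgeR, adjusted p under 0.05), where 0.0711% of all tested genes passed for Soshiho-tang and 0.00593% for Yijin-tang. At an unadjusted p under 0.05 were 0 genes of the 10 for Soshiho-tang, and IL6 and IL11 for Yijin-tang. Here and below, the share of all tested genes at that unadjusted threshold is not given, so these counts have no background beside them. IL11 had 113, 97.6 and 106 CPM in Yijin-tang libraries at 100 µg/mL, against 75.1, 71.8 and 82.1 CPM at 20 µg/mL. The libraries did not overlap, and the log2 difference was 0.47 ± 0.09 (adjusted p = 0.128). DESeq2 gave 0.46 ± 0.09 and an adjusted p of 0.00266, and edgeR with no filter on low counts 0.48 ± 0.06 and an adjusted p of 2.77e-11. These runs called 8 and 67 genes in this comparison, against 1 in the main fit. The estimate thus hardly moved, while the unfiltered run gave a smaller SE and called more genes. IL6 had 4.99, 5.66 and 5.91 CPM at 100 µg/mL, also above all 3 libraries at 20 µg/mL (0.39 ± 0.16, adjusted p = 1).

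Set against each other at the same concentration, 7 of the 10 genes passed at 500 µg/mL, LIF and IL6R higher with Soshiho-tang and IL6, IL11, OSMR, STAT3 and SOCS3 lower with Soshiho-tang than with Yijin-tang, where 25.2% of all tested genes passed. IL11 averaged 45.4 ± 7.32 CPM in Soshiho-tang libraries and 137 ± 10.8 CPM in Yijin-tang libraries (SD, n = 3 each), a log2 difference of -1.60 ± 0.09 (SE; edgeR adjusted p = 9.69e-12). LIF averaged 57.3 ± 6.25 CPM in Soshiho-tang libraries and 20.6 ± 2.52 CPM in Yijin-tang libraries (1.48 ± 0.08, adjusted p = 1.09e-11). For both genes the 3 libraries of one extract lay far from the 3 of the other. Without replicate 3 of Yijin-tang the differences were -1.66 ± 0.09 for IL11 and 1.56 ± 0.09 for LIF, and both passed.

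The remaining 5 differences at 500 µg/mL were smaller. IL6R differed by 0.84 ± 0.15 (adjusted p = 1.46e-04), SOCS3 by -0.46 ± 0.06 (adjusted p = 3.39e-06) and STAT3 by -0.33 ± 0.04 (adjusted p = 1.24e-06). Without replicate 3 of Yijin-tang these were 0.89 ± 0.17, -0.53 ± 0.06 and -0.33 ± 0.04, and all passed. IL6 was lower with Soshiho-tang by a log2 value of -0.42 ± 0.14 (adjusted p = 0.0305), and did not pass without replicate 3 of Yijin-tang (-0.29 ± 0.15, adjusted p = 0.179), without replicate 1 of Soshiho-tang (-0.46 ± 0.16, adjusted p = 0.0521) or without its replicate 3 (-0.35 ± 0.16, adjusted p = 0.132). OSMR differed by -0.23 ± 0.06 (adjusted p = 0.00676), and by -0.16 ± 0.06 without replicate 3 of Yijin-tang (adjusted p = 0.0541).

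At 100 µg/mL IL11 was the 1 gene of the 10 that passed between the extracts, where 0.753% of all tested genes did. It had 58.1, 62.4 and 59.7 CPM with Soshiho-tang, against 113, 97.6 and 106 CPM with Yijin-tang. No libraries overlapped, and the log2 difference was -0.81 ± 0.09 (edgeR adjusted p = 1.4e-05). LIFR (0.22 ± 0.08, adjusted p = 0.333) passed with no filter on low counts (0.21 ± 0.06, adjusted p = 0.0399). At 20 µg/mL 0 of the 10 passed, where 0.13% of all tested genes did. IL11, the 1 member with an unadjusted p under 0.05 there, differed by -0.23 ± 0.09 (adjusted p = 0.475), and passed with no filter on low counts (adjusted p = 0.0379), but not in DESeq2 (adjusted p = 0.572).

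The change between 500 and 20 µg/mL itself differed between the extracts for 5 of the 10 genes, as tested by the interaction in the same edgeR fit, where 13.6% of all tested genes passed. The difference, Soshiho-tang minus Yijin-tang, was 1.62 ± 0.12 for LIF (adjusted p = 3.97e-09) and -1.36 ± 0.12 for IL11 (adjusted p = 8.89e-08). For IL6R it was 0.80 ± 0.21 (adjusted p = 0.014), for SOCS3 -0.39 ± 0.08 (adjusted p = 0.00237) and for STAT3 -0.34 ± 0.06 (adjusted p = 1.44e-04). Without replicate 3 of Yijin-tang at 500 µg/mL these 5 also passed, where 2213 of all tested genes did. The differences were then 1.70 ± 0.12 for LIF, -1.42 ± 0.12 for IL11 and 0.84 ± 0.23 for IL6R. For SOCS3 and STAT3 they were -0.46 ± 0.08 and -0.34 ± 0.06. For IL6, which passed with both extracts, the difference of -0.32 ± 0.22 did not pass (adjusted p = 0.402). OSMR did not pass either (-0.23 ± 0.08, adjusted p = 0.0767), except in DESeq2 (-0.24 ± 0.09, adjusted p = 0.0427) and without replicate 2 of Yijin-tang at 500 µg/mL (-0.27 ± 0.09, adjusted p = 0.0493).

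**Figure D3:**
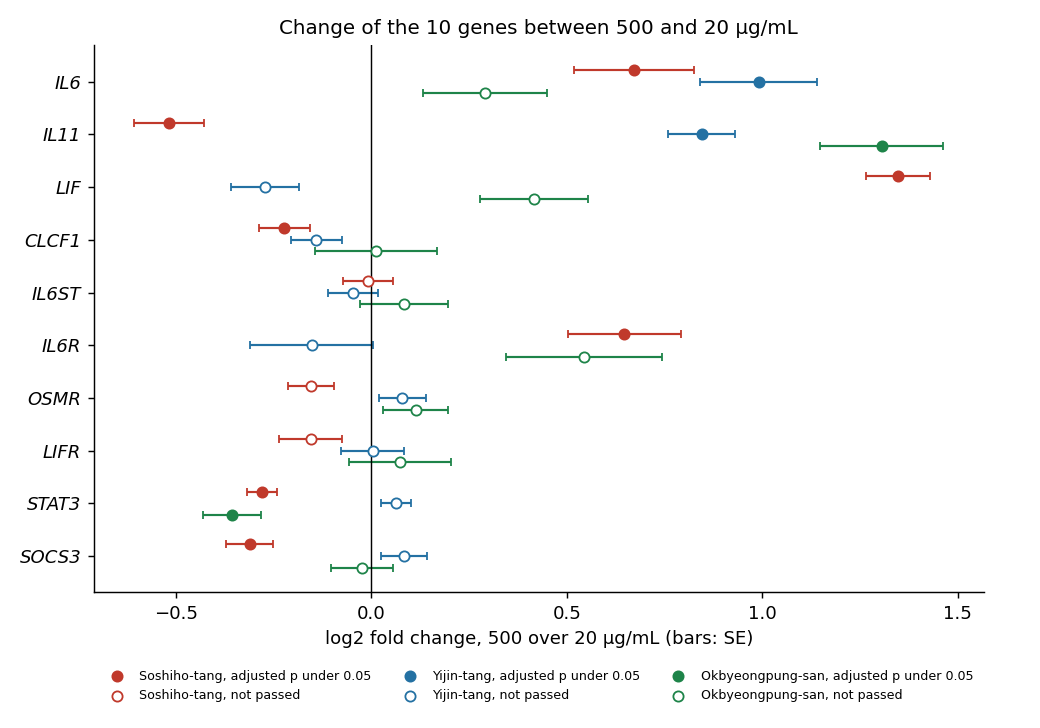
Log2 fold change of the 10 genes between 500 and 20 µg/mL for Soshiho-tang, Yijin-tang and Okbyeongpung-san (horizontal axis; bars, SE; filled points, adjusted p under 0.05 in edgeR). IL11 lies at -0.52 for Soshiho-tang and at 0.85 and 1.31 for Yijin-tang and Okbyeongpung-san, and LIF at 1.35 for Soshiho-tang.

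LIF and IL11 can be read against each other within a library, per kilobase of exon. The ratio of LIF to IL11 was 0.851, 0.935 and 0.78 in Soshiho-tang libraries at 500 µg/mL, and lay between 0.0814 and 0.347 in the other 27 libraries. In Yijin-tang libraries it was 0.0814, 0.103 and 0.122 at 500 µg/mL, against 0.221, 0.245 and 0.19 at 20 µg/mL. The ratio thus stood highest with Soshiho-tang and lowest with Yijin-tang at the same concentration. Vehicle libraries had ratios of 0.212, 0.208 and 0.191.

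**Figure D4:**
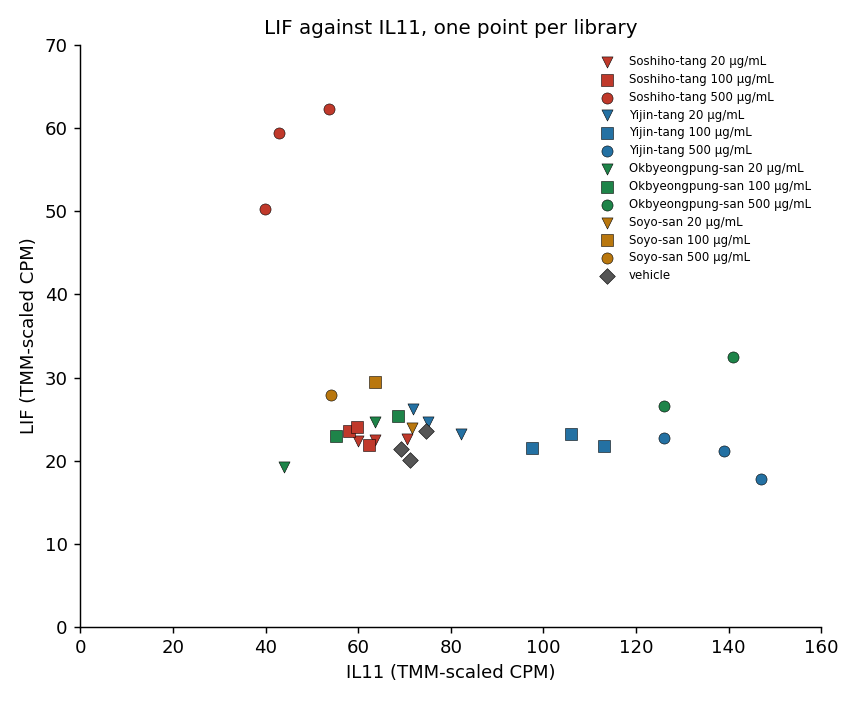
LIF (vertical axis) against IL11 (horizontal axis), both in TMM-scaled CPM, with 1 point per library, colours for extracts and shapes for concentrations. Soshiho-tang at 500 µg/mL lies at the upper left (LIF 50.3 to 62.3 CPM, IL11 39.8 to 53.7 CPM), and Yijin-tang and Okbyeongpung-san at 500 µg/mL lie at the right (IL11 126 CPM or more).

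Vehicle libraries served as a further baseline. They carry other library names than the extract libraries, so the library set and the treatment cannot be told apart in these comparisons. For Soshiho-tang at 500 µg/mL 6 of the 10 genes passed, where 43.9% of all tested genes did: LIF (1.40 ± 0.08), IL6R (1.06 ± 0.16) and IL6 (0.89 ± 0.16) were higher, and IL11 (-0.66 ± 0.09), SOCS3 (-0.35 ± 0.06) and STAT3 (-0.31 ± 0.04) were lower. OSMR (-0.11 ± 0.06, adjusted p = 0.132) passed when both groups were fitted alone (-0.12 ± 0.04, adjusted p = 0.0409). For Yijin-tang at 500 µg/mL 2 passed, where 31.3% of all tested genes did: IL6 was higher by 1.31 ± 0.16 (edgeR adjusted p = 3.14e-06) and IL11 by 0.94 ± 0.09 (adjusted p = 1.28e-07). Without replicate 3 of Yijin-tang, 3 of the 10 passed, where 4916 of all tested genes did. They were IL6 (1.18 ± 0.16, adjusted p = 2.06e-05), IL11 (0.99 ± 0.09, adjusted p = 1.8e-07) and SOCS3. SOCS3 was at 0.11 ± 0.06 with that library (adjusted p = 0.168) and at 0.17 ± 0.06 without it (adjusted p = 0.031). IL6 had 3.44, 3.28 and 3.33 CPM in the vehicle libraries, below every library of either extract at 500 µg/mL.

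At 20 µg/mL the members were nearer to vehicle. With Soshiho-tang 0 of the 10 passed in edgeR and in DESeq2, where 21.8% of all tested genes passed in edgeR, and 2 (CLCF1 and IL6R) had an unadjusted p under 0.05. IL6R, at 0.41 ± 0.16 (adjusted p = 0.077), passed without vehicle replicate 2 (0.55 ± 0.18, adjusted p = 0.043). With Yijin-tang 1 of 10 passed, where 19.8% of all tested genes did. It was CLCF1, with 25.7, 27.2 and 24.8 CPM against 23.5, 21.6 and 22.1 CPM in vehicle libraries (0.21 ± 0.07, adjusted p = 0.0304). That call did not hold without vehicle replicate 2 or 3 or without Yijin-tang replicate 1 or 2 (adjusted p of 0.109, 0.0901, 0.0626 and 0.118), nor with no filter on low counts (adjusted p = 0.0504).

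Okbyeongpung-san, with 2 libraries per concentration, raised IL11 and lowered STAT3. Of the 10 genes 2 passed between 500 and 20 µg/mL, where 10.3% of 16643 tested genes did. IL11 had 126 and 141 CPM at 500 µg/mL, against 43.9 and 63.6 CPM at 20 µg/mL. Both libraries at 500 µg/mL were far above both at 20 µg/mL, with a log2 fold change of 1.31 ± 0.16 (edgeR adjusted p = 8.96e-04). The titles place replicate 2 in batch E and replicate 3 in batch D, and the log2 ratio of CPM + 1 was 1.5 in batch E and 1.14 in batch D.

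STAT3 had 172 and 171 CPM in Okbyeongpung-san libraries at 500 µg/mL, against 226 and 211 CPM at 20 µg/mL. Both batches gave a lower value at 500 µg/mL (log2 ratio -0.39 in batch E and -0.30 in batch D), and the fitted change was -0.36 ± 0.07 (edgeR adjusted p = 0.0149). It did not pass without replicate 2 at 500 or at 20 µg/mL (adjusted p = 0.0557 and 0.106) or when both groups were fitted alone (adjusted p = 0.149). LIF had 26.6 and 32.5 CPM at 500 µg/mL, against 19.2 and 24.7 CPM at 20 µg/mL. The change of 0.42 ± 0.14 did not pass (adjusted p = 0.0867), but passed with the replicate number, which is also the batch, as a block (0.42 ± 0.11, adjusted p = 0.0462), without replicate 3 at 20 µg/mL (0.61 ± 0.15, adjusted p = 0.0375), with no filter on low counts (0.41 ± 0.11, adjusted p = 0.00627) and in a fit of 27 libraries (0.42 ± 0.12, adjusted p = 0.0179). IL6R (0.54 ± 0.20, adjusted p = 0.118) passed in the fit of 27 libraries (0.55 ± 0.18, adjusted p = 0.0326).

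The vehicle libraries are all of batch E, so replicate 3 of Okbyeongpung-san, of batch D, also differs from them by batch. Against vehicle, 6 of the 10 genes passed for Okbyeongpung-san at 500 µg/mL, where 24.7% of all tested genes did. IL6R (1.12 ± 0.19), IL11 (0.91 ± 0.14), IL6 (0.87 ± 0.15), LIF (0.46 ± 0.13) and OSMR (0.25 ± 0.08) were higher and STAT3 (-0.32 ± 0.07) was lower. IL6ST (0.29 ± 0.10, adjusted p = 0.0596) lay above vehicle in both libraries and passed with no filter on low counts, in a fit of 27 libraries and in DESeq2 (adjusted p = 0.00811, 0.00981 and 0.0389). LIF did not pass without vehicle replicate 2 or 3 or without Okbyeongpung-san replicate 3 (adjusted p of 0.0822, 0.0909 and 0.18). OSMR did not pass without each vehicle library in turn or without Okbyeongpung-san replicate 2 (adjusted p between 0.0715 and 0.191). At 20 µg/mL 0 of the 10 passed in edgeR and in DESeq2, where 2.24% of all tested genes passed in edgeR, and 3 had an unadjusted p under 0.05 (IL6, IL11 and IL6R). All 3 passed in the fit of 27 libraries (adjusted p = 0.0489, 0.0362 and 0.0432), and IL6 and IL11 with no filter on low counts (adjusted p = 0.0211 and 0.00199). Those fits called 2162 and 1442 genes, against 372 in the main fit, so the share of 2.24% is not their background.

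Soyo-san had 1 library per concentration and was not tested. Its titles place it in batch D and the vehicle in batch E, so batch and extract cannot be told apart here. LIF had 23.9, 29.4 and 27.9 CPM at 20, 100 and 500 µg/mL, and IL11 had 71.6, 63.7 and 54.2 CPM. At 500 µg/mL LIF, IL6 (4.9 CPM), IL6R (3.21 CPM), IL6ST (578 CPM) and OSMR (259 CPM) lay above all 3 vehicle libraries, and IL11, CLCF1 (19.9 CPM) and SOCS3 (30.2 CPM) lay below them. CLCF1 lay above them at 20 and 100 µg/mL (24.7 and 25.3 CPM). STAT3 (217 CPM) and LIFR (84.9 CPM) lay within the vehicle range at 500 µg/mL, but STAT3 lay below it at 20 and 100 µg/mL (203 and 206 CPM). LIF, IL6, IL6R and IL6ST also lay above all 3 vehicle libraries at 20 and at 100 µg/mL. The vehicle range was narrow for some genes, at 3.28 to 3.44 CPM for IL6. The share of all genes outside that range is not given, so these placements have no background beside them.

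Other genes of the route were counted in 4 lists between 500 and 20 µg/mL. The lists too were chosen with earlier results of these data known, so their counts are descriptions. Of 17 measured genes that regulate IL6 transcription or its transcript, 8 were higher and 0 lower with Soshiho-tang, beside 14.6% of all tested genes higher and 14.2% lower. Their median log2 change was 0.22, beside 0.01 over all genes. The list holds activators and inhibitors together, so its counts give no direction for IL6. ATF3, a stress-induced transcription factor of the CREB family, was at 7.44 ± 0.797 CPM at 500 µg/mL and 2.56 ± 0.549 CPM at 20 µg/mL (SD, n = 3 each; edgeR log2 change 1.54 ± 0.15 SE). CEBPB, a factor that binds the C/EBP motif, changed by 0.92 ± 0.13 and the cytokine IL1A by 0.76 ± 0.26. IL1A was rare, at 1.13 CPM at 500 µg/mL and 0.667 CPM at 20 µg/mL. With Yijin-tang 1 of the 17 was higher and 0 were lower, beside 2.7% and 2.94% of all tested genes. It was IL1B, at 5.54 ± 0.717 CPM at 500 µg/mL and 3.73 ± 0.624 CPM at 20 µg/mL (0.57 ± 0.12, edgeR adjusted p = 0.00787).

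Genes known as STAT3 targets went both ways with Soshiho-tang: of 18 measured, 5 were higher and 4 lower, with a median of 0.07, beside 14.6% of all tested genes higher and 14.2% lower. The adhesion molecule gene ICAM1 was at 90.8 ± 3.5 CPM at 500 µg/mL and 45.7 ± 2.74 CPM at 20 µg/mL (0.99 ± 0.06). BCL3, which makes a nuclear IkB-like protein, was at 27 ± 1.55 CPM at 500 µg/mL and 47.7 ± 3.37 CPM at 20 µg/mL (-0.82 ± 0.08), and CEBPD changed by -0.59 ± 0.14. Yijin-tang gave 2 higher and 0 lower, beside 2.7% of all tested genes higher and 2.94% lower: HIF1A (0.40 ± 0.08) and IL4R (0.32 ± 0.05).

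Of 12 measured kinases, phosphatases and brakes, 1 was higher and 4 were lower with Soshiho-tang, with a median of -0.11, beside 14.6% of all tested genes higher and 14.2% lower. The feedback inhibitors SOCS2 (-0.62 ± 0.15) and CISH (-0.54 ± 0.18) were lower, as SOCS3 was. SOCS2 averaged 2.51 CPM at 500 µg/mL, 3.83 CPM at 20 µg/mL and 2.92 CPM in vehicle libraries. CISH was rarer, at 1.05, 1.52 and 1.5 CPM in the same order. ADAM17, a protease that can shed the IL6 receptor from the cell surface, was higher (0.36 ± 0.06). The other genes that were lower, named after their values were seen, were ADAM10 (-0.32 ± 0.05), a protease that can also shed that receptor, and PIAS3 (-0.21 ± 0.06), an inhibitor of STAT3. Of 7 other ligand and receptor genes measured, the ligand gene CTF1 was higher (0.85 ± 0.21) and 0 were lower, beside the same shares of all tested genes. CTF1 was rare, at 1.87 CPM at 500 µg/mL and 1.05 CPM at 20 µg/mL, with the vehicle libraries between these at 1.5 CPM. With Yijin-tang it averaged 1.9 and 1.29 CPM (0.55 ± 0.21, edgeR adjusted p = 0.136). Between the extracts at 500 µg/mL CTF1 did not pass (-0.02 ± 0.2, edgeR adjusted p = 0.956). With Yijin-tang 0 genes of either list passed in edgeR, where 5.64% of all tested genes did. At an unadjusted p under 0.05 there were 2 of the 12 and 1 of the 7.

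Genes whose group means ran most like those of a ligand gene were taken over the 10 groups with replicates (27 libraries, 13792 genes, Pearson r of mean log2(CPM + 1)). The groups share 1 scaling and, in part, a library set, and r is given as a description. For LIF they were ARHGAP27 (0.986), PFKFB2 (0.984) and KCP (0.981). For IL11 they were ANO9 (0.964), FPR1 (0.948) and FANCL (0.929), and for IL6 DTWD1 (0.947), IL1RL1 (0.945) and PRKCH (0.943). The r values of LIF rest largely on Soshiho-tang at 500 µg/mL. There LIF averaged 57.3 CPM, beside 20.6 to 29.5 CPM in the other groups with replicates. ANO9 moved little, from 22.5 CPM with Soshiho-tang to 26.7 CPM with Okbyeongpung-san at 500 µg/mL. PFKFB2, an enzyme that sets the level of a glycolysis activator, averaged 37.4 CPM with Soshiho-tang at 500 µg/mL, 15 CPM with Yijin-tang at 500 µg/mL and 14.1 CPM in vehicle libraries.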

How the data were processed

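RNA of 30 SW1783 libraries was sequenced as paired ends from directional MGI libraries, per the labels' protocols. The authors deposited estimated counts (expected counts) per Ensembl gene, made with RSEM 1.3.3 after STAR 2.7.3a, Trim Galore 0.6.5 and FastQC 0.11.9 on hg38/GRCh38, per the submitters' processing notes. Neither annotation release nor strand setting is given in the sources used here, and reads of overlapping or antisense genes cannot be told apart. Symbols and coordinates are those of GENCODE v29 (GRCh38), matched by identifier for 57055 of 60675 genes.

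Counts were rounded, filtered with filterByExpr (minimum count 10, minimum total 15), scaled by TMM and tested in edgeR 4.0.16 (R 4.3.3) by quasi-likelihood, with Benjamini-Hochberg adjustment over all genes tested and a threshold of 0.05. Soshiho-tang, Yijin-tang and vehicle were fitted together (21 libraries), and Okbyeongpung-san with vehicle (9 libraries). Levels are CPM scaled over all 30 libraries, and per-kilobase levels divide them by the union of annotated exons. Replicate numbers did not pair the libraries of Soshiho-tang, Yijin-tang and vehicle (correlations of same-numbered deviations from -0.35 to 0.27 over all group pairs). For Okbyeongpung-san the number coincides with the batch in the titles (correlation 0.24). Alternatives were DESeq2 1.42.0, RLE size factors, no filter, no mitochondrially encoded genes, other sets of libraries, a replicate block and leaving out each library.

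All 10 members are named. From each of 4 lists of other pathway genes, up to 3 genes that passed with the largest changes are named. The members and lists were chosen with earlier results of these data known. No pair of libraries of one group looked like the same library deposited again (chi-square per degree of freedom 3.21 to 39.47).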

Additional observations from a re-analysis of the deposited data

Results flagged for a closer look

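For 5 genes the change between 500 and 20 µg/mL differed between extracts in the test of the difference itself (edgeR, Soshiho-tang minus Yijin-tang, log2). LIF differed by 1.62, with changes of 1.35 for Soshiho-tang and -0.27 for Yijin-tang. IL11 differed by -1.36, with changes of -0.52 for Soshiho-tang and 0.85 for Yijin-tang. IL6R differed by 0.80, with changes of 0.65 for Soshiho-tang and -0.15 for Yijin-tang. STAT3 differed by -0.34, with changes of -0.28 for Soshiho-tang and 0.06 for Yijin-tang. SOCS3 differed by -0.39, with changes of -0.31 for Soshiho-tang and 0.08 for Yijin-tang.

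In 3 further cases, over 2 pairs of extracts, all libraries at 500 µg/mL lay on one side of those at 20 µg/mL for one extract and on the other side for the other extract, and these differences were not tested. Over all tested genes, libraries at 500 and 20 µg/mL did not overlap for 43.4% with Soshiho-tang and 21.9% with Yijin-tang. The share for Okbyeongpung-san, with 2 libraries per concentration, is not given here, so the 3 cases have no full background beside them. IL11 changed by 1.31 with Okbyeongpung-san and by -0.52 with Soshiho-tang. LIF stood at 0.42 with Okbyeongpung-san and at -0.27 with Yijin-tang, neither past the threshold. STAT3 changed by -0.36 with Okbyeongpung-san and stood at 0.06, not past the threshold, with Yijin-tang.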

How the results depend on the processing

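IL6, IL11, LIF, IL6R, STAT3 and SOCS3 in Soshiho-tang at 500 against 20 µg/mL, and IL6 and IL11 in Yijin-tang, kept their direction and their call under all 12 alternatives run for each; calls that did not hold elsewhere are given beside the result, and their cause was not tested.

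Counts of called genes moved more. With no low-count filter, genes called went to 101 for Soshiho-tang 100 against 20 µg/mL (12 as reported), 67 for Yijin-tang 100 against 20 (1), 396 and 252 between extracts at 100 and 20 (127 and 22), 2604 for Okbyeongpung-san 500 against 20 (1716) and 1442 for its 20 against vehicle (372). Called members then numbered 1 for Yijin-tang 100 against 20 (0), 2 and 1 between extracts at 100 and 20 (1 and 0), 0 for Yijin-tang 20 against vehicle (1) and 2 for Okbyeongpung-san 20 against vehicle (0).

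DESeq2 called 8 genes and 1 member for Yijin-tang 100 against 20, 57 genes between extracts at 20, and 780 genes for Okbyeongpung-san 20 against vehicle. With the compared groups alone, the counts in the order Yijin-tang 500 against 20, Soshiho-tang 100 against 20, Yijin-tang 100 against 20 and extracts at 100 and 20 were 308, 3, 0, 46 and 6 genes, and Okbyeongpung-san had 523 genes and 1 member for 500 against 20 and 797 genes for 20 against vehicle. In a fit of 27 libraries Okbyeongpung-san had 3082 genes and 4 members for 500 against 20 and 2162 genes and 3 members for 20 against vehicle. A replicate block gave 40 genes for Okbyeongpung-san 20 against vehicle and, beside the LIF call given above, OSMR in Okbyeongpung-san 500 against vehicle no longer passed (0.22, adjusted p = 0.084); it changed no other call among the members followed.

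Leaving out 1 library gave 3 to 7 genes for Soshiho-tang 100 against 20, 0 to 1 for Yijin-tang 100 against 20, 505 to 1057 for Yijin-tang 500 against 20, 61 to 124 and 8 to 38 between extracts at 100 and 20, 2081 to 2822 for Yijin-tang 20 against vehicle, and for Okbyeongpung-san 630 to 1966 (500 against 20), 2228 to 3869 (500 against vehicle) and 9 to 26 (20 against vehicle). Called members ranged from 0 to 1 for both extracts at 20 against vehicle and from 1 to 3 for Okbyeongpung-san 500 against 20. Signs changed for IL6ST with Soshiho-tang (-0.04 to 0.02, leaving out 1 library), LIFR with Yijin-tang (-0.03 to 0.04) and between extracts at 500 (-0.05 to 0.03, and 0 with RLE size factors), and, without TMM, Soyo-san SOCS3 at 100 (0.01) and STAT3 at 20 µg/mL (0). IL6 and IL6R rest on few counts (77 to 276 and 34 to 102 per library), which limits their precision.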
